A study of Sus scrofa with 10 samples.

Results

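Livers of pigs on a bioartificial liver filled with human induced hepatocytes were compared, on day 8, with livers of pigs on the same kind of device without cells, on day 3. The 4 libraries of this comparison are the 2 of the hiHep-BAL-Day8 group (hiHepD8) and the 2 of the Empty-BAL group (EmptyBAL), out of 10 in the series. They were chosen by their labels alone. All 10 are labelled as wild-type Sus scrofa liver, and all pigs but those of the Control group, normal liver on day 0, had post-hepatectomy liver failure. Strain, age and sex are not given in the sources used here. The other groups are No-BAL (NoBAL, untreated failure on day 2, 2 libraries), Control (3 libraries) and a single hiHep-BAL library of day 4 (hiHepD4). The submitters used EmptyBAL to account for what passing blood through a device does by itself. Because one group was sampled on day 8 and the other on day 3, time and the cells in the device cannot be told apart in any value below. The labels name hepatocyte as the cell type but describe no step that isolates hepatocytes, and they leave out whether the libraries within a group are different animals. Every p-value below therefore rests on library-to-library spread, part or all of which may be technical.

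Hepatocytes clear ammonia through the urea cycle, break down amino acids, make glucose between meals, secrete most plasma proteins and form bile. After part of a liver is removed, the remaining hepatocytes re-enter the cell cycle, and many of their specialised genes are expressed at lower levels while they divide. A bioartificial liver passes the patient's blood or plasma over hepatocytes held outside the body. Human induced hepatocytes are hepatocyte-like cells obtained by reprogramming other human cells. The RNA measured here came from the pigs' livers, not from the cells in the device.

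Expression was deposited as FPKM (fragment counts corrected for gene length and library size), so levels are per length, and the read depth behind them is unknown. Over all genes FPKM added up to 496390 and 439925 for the EmptyBAL libraries and to 564816 and 547312 for the hiHepD8 libraries. The EmptyBAL libraries differed strongly from each other. Of 4644 genes averaging 10 FPKM or more over the 4 libraries, 28.7% differed at least 2-fold between them, against 0.30% between the hiHepD8 libraries. Throughout, a pair of values is replicate 1 followed by replicate 2, every log2 difference is hiHepD8 minus EmptyBAL on the log2(FPKM + 1) scale, and a gene is called where limma gave a Benjamini-Hochberg adjusted p under 0.05 over the 12180 genes that reached 1 FPKM in 2 or more of the 10 libraries. Hepatocyte markers were present in all 4 libraries. The sum of ALB, TTR, APOA1, HNF4A, SERPINA1 and TF was 3596 and 6671 FPKM in EmptyBAL and 20865 and 20789 in hiHepD8, mostly ALB and APOA1, with 3 of 6 called higher (ALB, APOA1 and HNF4A). Markers of other cell types were also present, and those of some types moved with the comparison. Of endothelial markers, 0 of 6 tested were called, and of stellate cell and myofibroblast markers, 2 of 7 were called lower. Those of macrophages summed to 693 and 915 FPKM in EmptyBAL and 754 and 759 in hiHepD8, with 5 of 9 called lower and 1 higher. The 1 called higher, CD14, made up 90.8 and 167 FPKM of the EmptyBAL sums and 483 and 490 FPKM of the hiHepD8 sums. Neutrophil markers summed to 627 and 105 FPKM in EmptyBAL and 0.694 and 0.97 in hiHepD8 (4 of 4 tested called lower; LTF was listed at 0 in both hiHepD8 libraries), and T and NK cell markers to 77.5 and 49.3 FPKM in EmptyBAL and 20.7 and 20.6 in hiHepD8 (5 of 7 lower). Cholangiocyte markers summed to 624 and 303 FPKM in EmptyBAL and 54.1 and 57.4 in hiHepD8 (3 of 5 lower, SOX9 and CFTR not called). Of these sums, SPP1 made up 527 and 183 FPKM in EmptyBAL and 26.5 and 28.4 FPKM in hiHepD8. The part of cell composition in the differences below was not tested, and where RNA may come from several cell types, fewer cells of a type and less RNA per cell cannot be told apart.

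Between the day 8 livers and the empty-device livers, 4895 genes were called, 40.2% of those tested. Of these, 2751 (22.6%) were higher and 2144 (17.6%) lower in hiHepD8, and the libraries of the groups did not overlap for any of them. The counts of each gene list below are to be read beside these shares. Without regard to the test, the groups did not overlap for 71.5% of genes. The median over all tested genes was 0.05. At least 2-fold, 1648 genes were higher and 1413 lower. The size of a difference depended on which EmptyBAL library it was measured from. Among genes called higher, 1229 were 2-fold above both EmptyBAL libraries, 549 above replicate 1 only and 195 above replicate 2 only. Among genes called lower, the same counts were 955, 528 and 184. The gap to replicate 1 was the larger one for 69.0% of the genes called higher and 68.8% of those called lower.

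**Figure D1:**
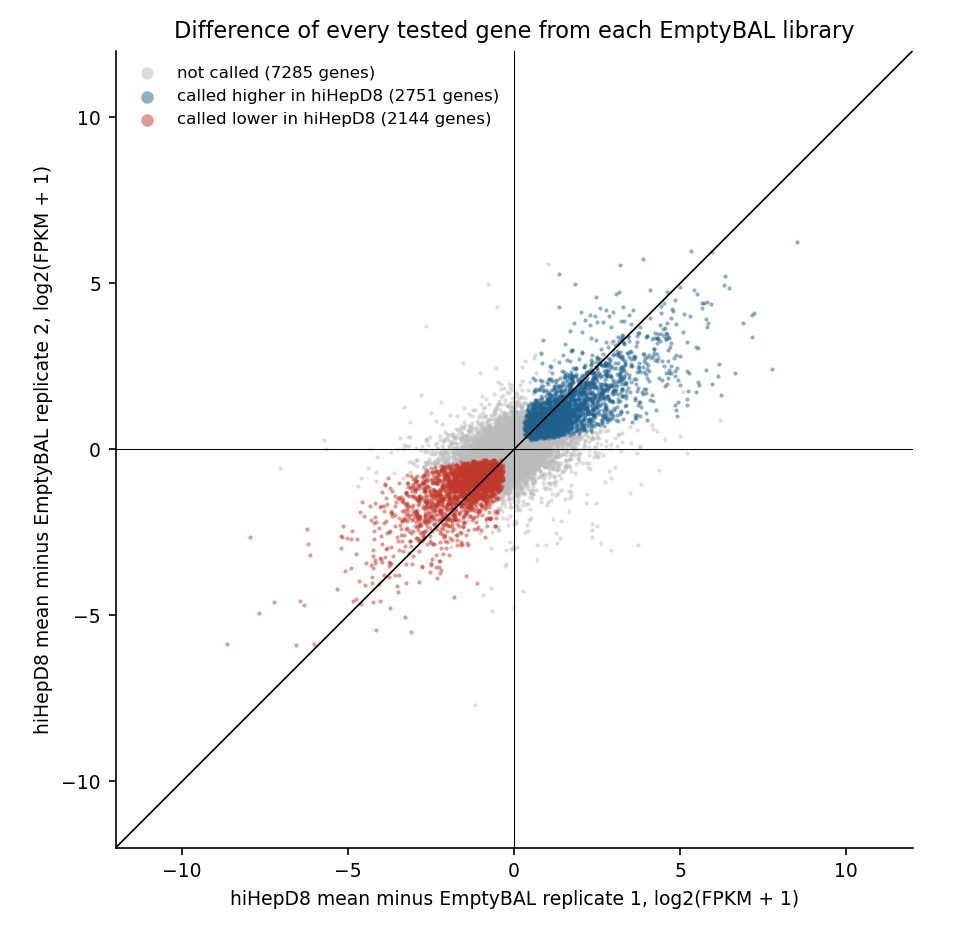
Each point is 1 of the 12180 tested genes; the x axis gives the mean of hiHepD8 minus EmptyBAL replicate 1 and the y axis the same mean minus EmptyBAL replicate 2, both in log2(FPKM + 1), with the line of equal differences drawn. Blue points are the 2751 genes called higher, red points the 2144 called lower and grey points the 7285 not called; for 69.0% of the higher and 68.8% of the lower genes the gap to replicate 1 is the larger, which places them between the line and the x axis.

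Both hiHepD8 libraries, like the Control libraries, matched each other to an extent that may be technical. With Control and hiHepD8 each counted as 1 library, 33 genes stayed past the threshold (27 higher, 0.222% of those tested, and 6 lower, 0.0493%), and of the genes named below by rule only GYS2, CHDH, LPIN1, TK1, CDC20, CD209 and CDT1 were among them (adjusted p = 0.039 to 0.050). Fitted on the 4 compared libraries alone, 1407 genes were called higher and 946 lower. Counts and p-values given below without an EmptyBAL replicate rest on a single EmptyBAL library. The spread of EmptyBAL is then not measured, and the fit takes it from the other groups. Such values are descriptions of how the calls depend on that library. The main fit also shares 1 spread for each gene among all groups, including the tight Control and hiHepD8 groups. SEs and p-values from it can therefore understate the spread of EmptyBAL. In hiHepD8 most called genes were within 2-fold of Control on the log2(FPKM + 1) scale, which draws genes of low FPKM together. Of the 2751 higher genes, 1931 were within 2-fold of the Control mean in hiHepD8, 331 below it and 489 above it. In EmptyBAL, 1407 of them were within 2-fold of Control and 1301 below. Of the 2144 lower genes, 1785 were within 2-fold of Control in hiHepD8. In EmptyBAL, 981 of them were within 2-fold of Control and 1103 above. The hiHepD8 mean lay inside the range of the Control libraries for 195 of the higher and 341 of the lower genes. It lay above that range for 1533 and 616 of them and below it for 1023 and 1187. The share within 2-fold of Control among genes not called is not given here. These positions relative to Control are descriptions and were not tested.

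Most of the 15 genes that were higher by the most encode enzymes that break down amino acids, detoxify ammonia or make glucose. TAT, tyrosine aminotransferase, which opens the breakdown of tyrosine, was at 7.73 and 41.9 FPKM in EmptyBAL and at 3236 and 3203 FPKM in hiHepD8 (log2 difference 7.38 ± 0.66 SE, adjusted p = 0.00023). It stood above its own level in normal liver, 242 ± 6.99 FPKM in Control (SD, n = 3). ASS1, argininosuccinate synthase of the urea cycle, was at 71.8 and 222 FPKM in EmptyBAL and at 6361 and 6661 FPKM in hiHepD8 (log2 difference 5.67 ± 0.54 SE, adjusted p = 0.00029). SDS, serine dehydratase, which turns serine into pyruvate, was at 12.1 and 112 FPKM in EmptyBAL and at 1963 and 1927 FPKM in hiHepD8 (log2 difference 5.66 ± 0.81 SE, adjusted p = 0.0015), while normal liver held 16.1 ± 1.14 FPKM in Control. For these 3 genes both hiHepD8 libraries lay far above both EmptyBAL libraries, and EmptyBAL replicate 1 was the lowest of the 4. UPP2, uridine phosphorylase of the liver, was at 0.805 and 3.72 FPKM in EmptyBAL and at 145 and 144 FPKM in hiHepD8 (log2 difference 5.64 ± 0.56 SE, adjusted p = 0.00033). GYS2, the liver glycogen synthase, was at 4.09 and 2.24 FPKM in EmptyBAL and at 202 and 200.1 FPKM in hiHepD8 (log2 difference 5.64 ± 0.24 SE, adjusted p = 2.4e-05), and here EmptyBAL replicate 2 was the lower. CTH, GPT2, G6PC1, TDO2, CPS1, APOF, GNMT and AASS were also among the 15. In the RefSeq annotation of Sscrofa11.1, TAT (ENSSSCG00000002736) lies on chromosome 6 from 14571311 to 14583203, ASS1 (ENSSSCG00000005701) on chromosome 1 from 270531434 to 270586364 and SDS (ENSSSCG00000036865) on chromosome 14 from 38503922 to 38513908.

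Among the 15 genes that were lower by the most were genes of neutrophils and macrophages and genes of DNA synthesis and mitosis. S100A12, a calcium-binding protein abundant in neutrophils, was at 443 and 63 FPKM in EmptyBAL and at 0.234 and 0 FPKM in hiHepD8 (log2 difference -7.24 ± 1.08 SE, adjusted p = 0.0018). S100A8, a subunit of the neutrophil protein calprotectin, was at 175 and 27.6 FPKM in EmptyBAL and at 0 and 0.393 FPKM in hiHepD8. For both, EmptyBAL replicate 1 was several times above replicate 2. Groups that do not overlap were a condition for all of these 15 genes. TK1, thymidine kinase of dividing cells, was at 93.1 and 84.3 FPKM in EmptyBAL and at 0.404 and 0.511 FPKM in hiHepD8 (log2 difference -5.94 ± 0.34 SE, adjusted p = 4.1e-05), and the EmptyBAL libraries were close to each other. CCL2, the chemokine that draws monocytes, was at 238 and 63.9 FPKM in EmptyBAL and at 1.71 and 1.73 FPKM in hiHepD8 (log2 difference -5.52 ± 0.59 SE, adjusted p = 0.00047). MARCO, a scavenger receptor of macrophages, was at 179 and 56.4 FPKM in EmptyBAL and at 1.48 and 1.01 FPKM in hiHepD8 (log2 difference -5.51 ± 0.45 SE, adjusted p = 0.00018). TIMP1, an inhibitor of matrix metalloproteinases, was at 2706 and 351 FPKM in EmptyBAL and at 37.6 and 37.4 FPKM in hiHepD8 (log2 difference -4.66 ± 0.89 SE, adjusted p = 0.0052), and here replicate 1 was again the highest. RCN3, a calcium-binding protein of the endoplasmic reticulum, was listed at 0 in both hiHepD8 and all Control libraries and at 247 and 5.26 FPKM in EmptyBAL; its adjusted p was 0.15 without EmptyBAL replicate 1. The remaining 8 were CDC20, UBE2C, SLC11A1, PCLAF, MYBL2, TGM3, CD209 and CDT1. TK1 (ENSSSCG00000037120) lies on chromosome 12 from 3785997 to 3794824 and S100A12 (ENSSSCG00000032857) on chromosome 4 from 96225691 to 96227030.

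**Figure D2:**
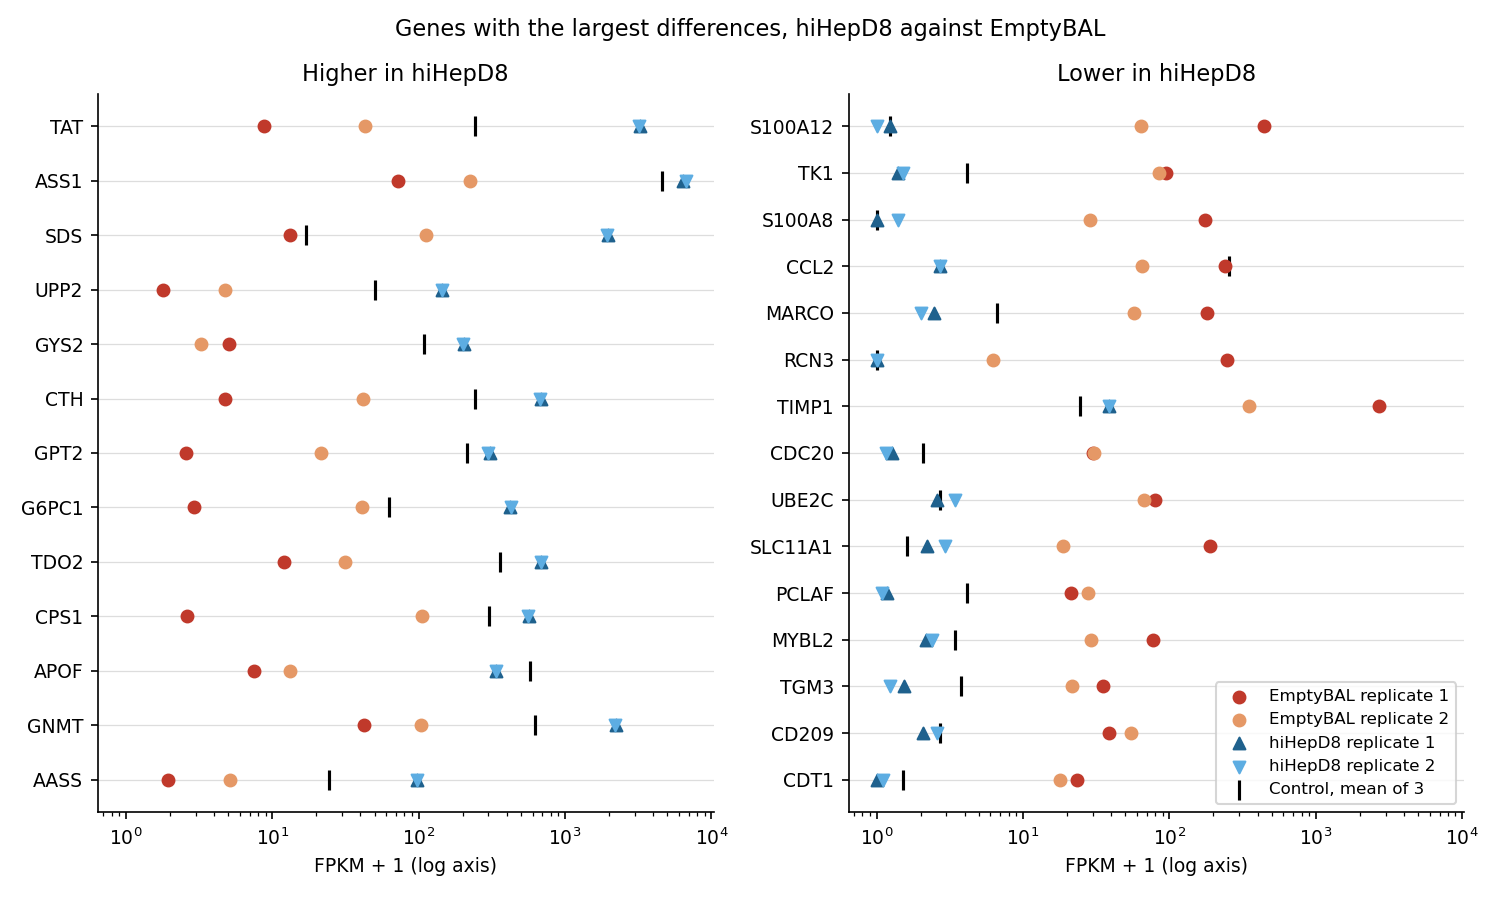
FPKM + 1 on a log axis for 13 of the 15 largest differences upward (left, higher in hiHepD8) and the 15 largest downward (right, lower), with circles for the EmptyBAL libraries, triangles for the hiHepD8 libraries and a black bar for the mean of the 3 Control libraries. The hiHepD8 triangles nearly coincide in the left panel, and the EmptyBAL circles spread more, as for TIMP1 at 2706 and 351 FPKM. Only genes whose groups do not overlap could be chosen, so the lack of overlap in the 28 genes is not a result.

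Most genes that dispose of amino acid nitrogen were higher in the day 8 livers. In the urea cycle list, 7 of 12 tested genes were called higher and 0 lower (median log2 difference 3.53, or 4.37 and 1.49 against EmptyBAL replicates 1 and 2). CPS1, which commits ammonia to the cycle, was at 1.6 and 105 FPKM in EmptyBAL and at 564 and 559.8 FPKM in hiHepD8 (log2 difference 5.08 ± 1.39 SE, adjusted p = 0.022). EmptyBAL replicate 1 was far below replicate 2 there, and both were below hiHepD8. OTC, the next enzyme, was at 5.41 and 9.68 FPKM in EmptyBAL and at 118 and 121 FPKM in hiHepD8 (log2 difference 3.86 ± 0.29 SE, adjusted p = 0.00012), with both EmptyBAL libraries low. ARG1, arginase, the last enzyme, was at 16.4 and 680.0 FPKM in EmptyBAL and at 1269 and 1262 FPKM in hiHepD8 and was not called (adjusted p = 0.076). GLUL, glutamine synthetase, was at 69.7 and 185 FPKM in EmptyBAL and at 48.9 and 48.9 FPKM in hiHepD8, and GLUD1, glutamate dehydrogenase, was at 44.2 and 332 FPKM in EmptyBAL and at 59.1 and 59.8 FPKM in hiHepD8. Neither was called, and hiHepD8 lay below both EmptyBAL libraries for GLUL and between them for GLUD1. Higher and lower calls in the list numbered 7 and 2 without EmptyBAL replicate 1.

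Every tested gene of phenylalanine, tyrosine and lysine breakdown was called higher. Here 11 of 11 tested genes were called higher and 0 lower (median log2 difference 3.48, or 4.31 and 2.55 against EmptyBAL replicates 1 and 2). HGD, the dioxygenase that opens the ring of homogentisate, was at 6.43 and 90.2 FPKM in EmptyBAL and at 542 and 527 FPKM in hiHepD8 (log2 difference 4.36 ± 0.95 SE, adjusted p = 0.0089). AASS, the first enzyme of lysine breakdown, was at 0.947 and 4.13 FPKM in EmptyBAL and at 95.8 and 97 FPKM in hiHepD8 (log2 difference 4.95 ± 0.46 SE, adjusted p = 0.00026). For tryptophan, 9 of 12 tested genes were called higher and 0 lower (median log2 difference 2.70, or 2.51 and 2.39 against EmptyBAL replicates 1 and 2). TDO2, tryptophan dioxygenase of hepatocytes, was at 11 and 30.5 FPKM in EmptyBAL and at 689 and 679.6 FPKM in hiHepD8 (log2 difference 5.13 ± 0.44 SE, adjusted p = 0.0002). ACMSD, which steers the kynurenine pathway away from NAD, was at 0.141 and 22.1 FPKM in EmptyBAL and at 106 and 121 FPKM in hiHepD8 (log2 difference 4.48 ± 1.19 SE, adjusted p = 0.02). AFMID, kynurenine formamidase, was at 10.4 and 23.2 FPKM in EmptyBAL and at 224 and 223 FPKM in hiHepD8, against 6.15 ± 0.934 FPKM in Control.

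Serine, methionine and choline enzymes and branched-chain enzymes followed the same direction. Of the former, 13 of 17 tested genes were called higher and 0 lower (median log2 difference 3.61, or 4.41 and 3.75 against EmptyBAL replicates 1 and 2). CTH, cystathionine gamma-lyase, was at 3.77 and 40.4 FPKM in EmptyBAL and at 689.6 and 675 FPKM in hiHepD8 (log2 difference 5.60 ± 0.83 SE, adjusted p = 0.0018). GNMT, which consumes the methyl donor S-adenosylmethionine, was at 41.5 and 103 FPKM in EmptyBAL and at 2241 and 2190.0 FPKM in hiHepD8 (log2 difference 5.06 ± 0.45 SE, adjusted p = 0.00022). CHDH, choline dehydrogenase, was at 0.077 and 0.387 FPKM in EmptyBAL and at 30.1 and 30.3 FPKM in hiHepD8 (log2 difference 4.67 ± 0.18 SE, adjusted p = 2.4e-05), a near absence in both EmptyBAL libraries. AGXT, which detoxifies glyoxylate, was at 34.5 and 72.9 FPKM in EmptyBAL and at 1243 and 1232 FPKM in hiHepD8 (log2 difference 4.60 ± 0.42 SE, adjusted p = 0.00026). Of the branched-chain genes, 10 of 13 tested genes were called higher and 0 lower (median log2 difference 2.32, or 3.14 and 1.47 against EmptyBAL replicates 1 and 2). BCKDHB, a subunit of the branched-chain ketoacid dehydrogenase, was at 1.75 and 7.43 FPKM in EmptyBAL and at 71.3 and 70.6 FPKM in hiHepD8 (log2 difference 3.90 ± 0.44 SE, adjusted p = 0.00056). MMUT, methylmalonyl-CoA mutase, was at 3.34 and 7.7 FPKM in EmptyBAL and at 47.7 and 49.6 FPKM in hiHepD8 (log2 difference 3.01 ± 0.29 SE, adjusted p = 0.00032). Calls in the serine and methionine list numbered 13 and 2 without EmptyBAL replicate 1.

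Amino acid transporters were called in both directions. In this list, 10 of 19 tested genes were called higher and 4 lower (median log2 difference 0.86, or 1.44 and 0.63 against EmptyBAL replicates 1 and 2). SLC7A2, which carries cationic amino acids into hepatocytes, was at 1.55 and 8.18 FPKM in EmptyBAL and at 137 and 139 FPKM in hiHepD8 (log2 difference 4.85 ± 0.51 SE, adjusted p = 0.00042). SLC38A4 and SLC38A3, sodium-coupled carriers of hepatocytes, had log2 differences of 4.75 ± 0.61 SE and 3.96 ± 0.47 SE. The 4 members called lower were SLC3A2, the heavy chain of several exchangers, at 136 and 143 FPKM in EmptyBAL and at 38.3 and 33.3 FPKM in hiHepD8 (log2 difference -1.93 ± 0.27 SE, adjusted p = 0.0014), its partner SLC7A5, the cationic carrier SLC7A1 and the glutamine carrier SLC1A5.

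All 11 tested genes of glucose production were called higher, from a coactivator to the last enzyme. In the gluconeogenesis list, 11 of 11 tested genes were called higher and 0 lower (median log2 difference 3.21, or 4.79 and 2.54 against EmptyBAL replicates 1 and 2). G6PC1, the catalytic subunit of glucose-6-phosphatase, which releases free glucose, was at 1.94 and 39.9 FPKM in EmptyBAL and at 422 and 424 FPKM in hiHepD8 (log2 difference 5.27 ± 1.0 SE, adjusted p = 0.005). GPT2, alanine aminotransferase of mitochondria, was at 1.56 and 20.4 FPKM in EmptyBAL and at 305 and 297 FPKM in hiHepD8 (log2 difference 5.35 ± 0.84 SE, adjusted p = 0.0022). SLC37A4, the glucose-6-phosphate carrier, was at 20.1 and 31.5 FPKM in EmptyBAL and at 586 and 581 FPKM in hiHepD8 (log2 difference 4.48 ± 0.44 SE, adjusted p = 0.00032). PPARGC1A, a coactivator that raises these genes in fasting, was at 0.0973 and 1.01 FPKM in EmptyBAL and at 12.4 and 13 FPKM in hiHepD8, which was above 3.86 ± 0.339 FPKM in Control. For each of the 4, EmptyBAL replicate 1 was the lowest of the 4 compared libraries. Of the glycogen genes, 6 of 9 tested genes were called higher and 0 lower (median log2 difference 0.86, or 1.04 and 0.68 against EmptyBAL replicates 1 and 2). Of sugar uptake and adult glycolysis genes, 3 of 7 tested genes were called higher and 0 lower (median log2 difference 0.81, or 1.33 and 0.30 against EmptyBAL replicates 1 and 2). SLC2A2, the glucose transporter GLUT2, was at 1.47 and 18.6 FPKM in EmptyBAL and at 93.5 and 95.1 FPKM in hiHepD8 (log2 difference 3.78 ± 0.81 SE, adjusted p = 0.0084). Calls there numbered 3 and 1 without EmptyBAL replicate 1. Of the glycolytic forms found in dividing or hypoxic cells, 0 of 11 tested genes were called higher and 1 lower (median log2 difference -0.39, or -0.48 and -0.24 against EmptyBAL replicates 1 and 2). The 1 called was LDHA, a lactate dehydrogenase subunit, at 110.4 and 88.7 FPKM in EmptyBAL and at 41.5 and 39.4 FPKM in hiHepD8 (log2 difference -1.27 ± 0.18 SE, adjusted p = 0.0016). PKM, the pyruvate kinase of most non-hepatic cells, was at 316 and 40.8 FPKM in EmptyBAL and at 24.6 and 24.8 FPKM in hiHepD8, high in EmptyBAL replicate 1 alone, and was not called. Calls numbered 0 and 2 without EmptyBAL replicate 1 and 1 and 6 without EmptyBAL replicate 2.

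**Figure D3:**
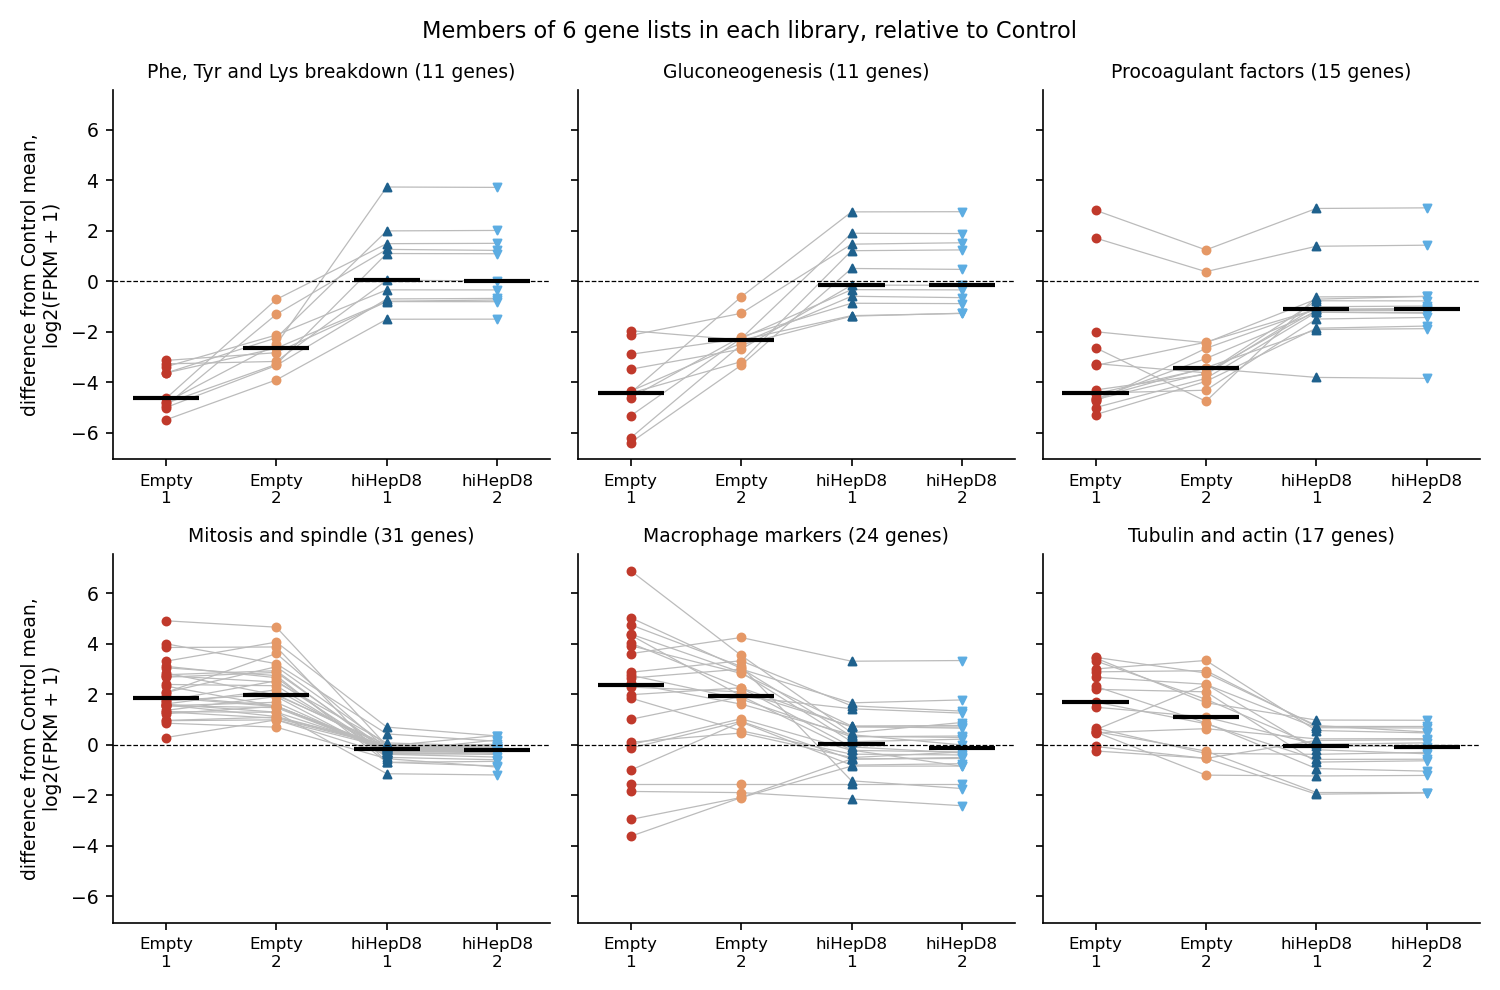
Points are the tested members of 6 gene lists in each of the 4 libraries, as log2(FPKM + 1) minus the mean of the 3 Control libraries, with a grey line for each gene, a black bar at the median and the dashed line at the Control level. Medians of phenylalanine, tyrosine and lysine breakdown lay at -4.65 and -2.65 for EmptyBAL and close to 0 for hiHepD8 (0.04 and 0.01), while those of mitosis went from 1.87 and 1.97 to -0.17 and -0.20.

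Lipid genes did not move as 1 group. The called members of fatty acid synthesis were higher except for the desaturases. Of that list, 6 of 14 tested genes were called higher and 2 lower (median log2 difference 0.77, or 0.67 and 0.51 against EmptyBAL replicates 1 and 2). FASN, fatty acid synthase, was at 20.6 and 28.6 FPKM in EmptyBAL and at 273 and 283 FPKM in hiHepD8 (log2 difference 3.46 ± 0.32 SE, adjusted p = 0.00027), and SREBF1, the transcription factor that drives it, was at 10.6 and 12.9 FPKM in EmptyBAL and at 98.9 and 96.7 FPKM in hiHepD8 (log2 difference 2.96 ± 0.17 SE, adjusted p = 4.1e-05). LPIN1, a phosphatidate phosphatase, was at 1.76 and 2.0 FPKM in EmptyBAL and at 45.1 and 46.1 FPKM in hiHepD8 (log2 difference 4.02 ± 0.14 SE, adjusted p = 2.4e-05), and both EmptyBAL libraries were low. The 2 members called lower were the desaturases FADS1 and FADS2, the latter at 11.4 and 9.52 FPKM in EmptyBAL and at 2.82 and 3.63 FPKM in hiHepD8 (log2 difference -1.44 ± 0.18 SE, adjusted p = 0.00092), with normal liver at 439.6 ± 7.54 FPKM in Control. Of the lipid droplet genes, 3 of 14 tested genes were called higher and 3 lower (median log2 difference -0.44, or -0.21 and -0.29 against EmptyBAL replicates 1 and 2). These droplet counts were close to the shares over all tested genes, 22.6% higher and 17.6% lower. PLIN2, which coats lipid droplets, was at 53.8 and 185 FPKM in EmptyBAL and at 4.95 and 4.31 FPKM in hiHepD8 (log2 difference -4.17 ± 0.48 SE, adjusted p = 0.00061). Both hiHepD8 libraries were below EmptyBAL and below 23 ± 1.28 FPKM in Control. CD36, a fatty acid transporter, was at 4.54 and 5.1 FPKM in EmptyBAL and at 45.2 and 47.1 FPKM in hiHepD8 (log2 difference 3.02 ± 0.16 SE, adjusted p = 3.5e-05). Calls numbered 6 and 1 without EmptyBAL replicate 2 for synthesis, and 4 and 6 without EmptyBAL replicate 2 for droplets.

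Calls in fatty acid oxidation depended on the EmptyBAL library. Of its genes, 7 of 19 tested genes were called higher and 1 lower (median log2 difference 0.38, or 1.12 and -0.17 against EmptyBAL replicates 1 and 2). Calls numbered 6 and 6 without EmptyBAL replicate 1 and 12 and 1 without EmptyBAL replicate 2. BDH1, which makes the ketone body 3-hydroxybutyrate, was at 0.789 and 9.2 FPKM in EmptyBAL and at 44.2 and 43.2 FPKM in hiHepD8 (log2 difference 3.39 ± 0.69 SE, adjusted p = 0.0068). CPT1A, which admits long-chain fatty acids to mitochondria, was called lower at 17.3 and 27.4 FPKM in EmptyBAL and at 5.08 and 5.43 FPKM in hiHepD8 (log2 difference -1.87 ± 0.35 SE, adjusted p = 0.0045), with normal liver at 77.3 ± 3.73 FPKM in Control. PPARA, the nuclear receptor that drives this pathway, was at 0.0883 and 0.255 FPKM in EmptyBAL and at 0.499 and 0.312 FPKM in hiHepD8, near the floor in both groups, and was not called. Of the cholesterol genes, 6 of 20 tested genes were called higher and 2 lower (median log2 difference 0.08, or 0.30 and -0.06 against EmptyBAL replicates 1 and 2). These cholesterol counts were not far from the shares over all tested genes, 22.6% higher and 17.6% lower. FDPS, an enzyme of the mevalonate pathway, was called lower at 58.2 and 54.6 FPKM in EmptyBAL and at 12.3 and 13.9 FPKM in hiHepD8 (log2 difference -2.03 ± 0.25 SE, adjusted p = 0.00088).

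Apolipoprotein genes were mostly higher. In that list, 12 of 16 tested genes were called higher and 1 lower (median log2 difference 2.40, or 2.73 and 1.70 against EmptyBAL replicates 1 and 2). APOF, which inhibits cholesteryl ester transfer, was at 6.5 and 12.3 FPKM in EmptyBAL and at 339 and 335 FPKM in hiHepD8 (log2 difference 5.08 ± 0.34 SE, adjusted p = 7.5e-05), and APOH, beta-2-glycoprotein, was at 186 and 114 FPKM in EmptyBAL and at 3205 and 3169 FPKM in hiHepD8 (log2 difference 4.44 ± 0.50 SE, adjusted p = 0.00056). APOD, made mainly outside the liver, was at 4.45 and 10.8 FPKM in EmptyBAL and at 114 and 113 FPKM in hiHepD8 (log2 difference 3.83 ± 0.42 SE, adjusted p = 0.00053), with 0.743 ± 0.118 FPKM in Control. APOA2 and APOA4, of HDL and of intestinal and liver particles, were each low in EmptyBAL replicate 1 and high in replicate 2, at 17.3 and 438 FPKM in EmptyBAL and at 96.8 and 86.5 FPKM in hiHepD8 for APOA2, and neither was called. Calls numbered 11 and 3 without EmptyBAL replicate 1.

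Most genes of bile acid synthesis were higher, and transport was mixed. Of the synthesis genes, 8 of 10 tested genes were called higher and 0 lower (median log2 difference 1.81, or 1.97 and 1.37 against EmptyBAL replicates 1 and 2). CYP7A1, the rate-limiting enzyme, was at 1.03 and 0.562 FPKM in EmptyBAL and at 5.78 and 5.76 FPKM in hiHepD8 (log2 difference 1.92 ± 0.16 SE, adjusted p = 0.00019), below 33.4 ± 0.946 FPKM in Control. ACOX2, which shortens the bile acid side chain, was at 12.6 and 19.6 FPKM in EmptyBAL and at 213 and 212 FPKM in hiHepD8 (log2 difference 3.67 ± 0.25 SE, adjusted p = 7.5e-05). CYP8B1, which sets the cholic acid share, was under 0.02 FPKM in EmptyBAL and listed at 0 in both hiHepD8 libraries. Of the transport genes, 5 of 12 tested genes were called higher and 1 lower (median log2 difference 0.93, or 1.88 and -0.14 against EmptyBAL replicates 1 and 2). ABCB11, the bile salt export pump, was at 0.889 and 7.22 FPKM in EmptyBAL and at 26.7 and 26.1 FPKM in hiHepD8 (log2 difference 2.80 ± 0.56 SE, adjusted p = 0.0065), and SLC10A1, the sodium-coupled uptake carrier, was at 5.03 and 1.94 FPKM in EmptyBAL and at 28.8 and 28.8 FPKM in hiHepD8 (log2 difference 2.83 ± 0.30 SE, adjusted p = 0.00046). SLC22A7, an organic anion carrier, was called lower at 6.85 and 20.9 FPKM in EmptyBAL and at 0.622 and 0.691 FPKM in hiHepD8 (log2 difference -2.99 ± 0.43 SE, adjusted p = 0.0015). SLC51A, a subunit of the exporter to the blood, was at 0.093 and 24.4 FPKM in EmptyBAL and at 0.385 and 0.271 FPKM in hiHepD8, high in EmptyBAL replicate 2 alone. Calls in the transport list numbered 5 and 4 without EmptyBAL replicate 1 and 8 and 1 without EmptyBAL replicate 2.

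Some drug-metabolising genes were higher, and 13 of 14 P450 genes and 18 of 21 conjugation, alcohol and aldehyde genes were below the Control mean in hiHepD8. Of the cytochrome P450 genes, 6 of 14 tested genes were called higher and 1 lower (median log2 difference 1.62, or 2.16 and 0.74 against EmptyBAL replicates 1 and 2). CYP2D6, as the deposited table names it, was at 44.8 and 87.3 FPKM in EmptyBAL and at 996 and 965 FPKM in hiHepD8 (log2 difference 3.95 ± 0.41 SE, adjusted p = 0.00042), with 4797 ± 24.9 FPKM in Control. CYP1A2 was at 6.93 and 42 FPKM in EmptyBAL and at 214 and 204 FPKM in hiHepD8 (log2 difference 3.51 ± 0.64 SE, adjusted p = 0.0045), with 591 ± 5.24 FPKM in Control. CYP2A19, the most abundant of the list in normal liver at 5543 ± 90.8 FPKM in Control, was at 226 and 3.14 FPKM in EmptyBAL and at 127 and 133 FPKM in hiHepD8 and was not called. CYP1A1, a target of the aryl hydrocarbon receptor, was at 0.582 and 67.8 FPKM in EmptyBAL and at 8.67 and 8.67 FPKM in hiHepD8, so that its EmptyBAL libraries lay on either side of hiHepD8. Cytochrome P450 genes have close paralogs, and the sources used here do not say how fragments were shared among them. Of conjugation, alcohol and aldehyde enzymes, 10 of 21 tested genes were called higher and 0 lower (median log2 difference 1.44, or 2.42 and 0.74 against EmptyBAL replicates 1 and 2). FMO1, a flavin monooxygenase, was at 12.6 and 21.9 FPKM in EmptyBAL and at 356 and 357 FPKM in hiHepD8 (log2 difference 4.34 ± 0.36 SE, adjusted p = 0.00018), and FMO5 was at 1.57 and 2.19 FPKM in EmptyBAL and at 55.1 and 52.1 FPKM in hiHepD8 (log2 difference 4.25 ± 0.35 SE, adjusted p = 0.00018). ALDH1A1, retinal dehydrogenase, was at 24.8 and 724 FPKM in EmptyBAL and at 142 and 149 FPKM in hiHepD8, between its EmptyBAL libraries. Calls numbered 6 and 3 without EmptyBAL replicate 1 and 10 and 1 without EmptyBAL replicate 2 for the P450 genes, and 11 and 2 without EmptyBAL replicate 1 and 16 and 0 without EmptyBAL replicate 2 for the conjugation list.

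Most clotting genes were higher. Of procoagulant genes, 12 of 15 tested genes were called higher and 0 lower (median log2 difference 2.60, or 2.74 and 1.83 against EmptyBAL replicates 1 and 2). F9, factor IX, was at 11.8 and 25.2 FPKM in EmptyBAL and at 192 and 191 FPKM in hiHepD8 (log2 difference 3.39 ± 0.32 SE, adjusted p = 0.00028). F12, factor XII, was at 142 and 31.8 FPKM in EmptyBAL and at 576 and 584 FPKM in hiHepD8 (log2 difference 3.08 ± 0.66 SE, adjusted p = 0.0085), with EmptyBAL replicate 2 the lower. F11, factor XI, was at 0.136 and 0.741 FPKM in EmptyBAL and at 10.2 and 10.4 FPKM in hiHepD8 (log2 difference 3.0 ± 0.25 SE, adjusted p = 0.00018). The 3 procoagulant genes not called were VWF, F8 and F3, which are made chiefly outside hepatocytes. Of anticoagulant and fibrinolysis genes, 8 of 12 tested genes were called higher and 2 lower (median log2 difference 2.21, or 2.96 and 1.65 against EmptyBAL replicates 1 and 2). PROC, protein C, was at 52 and 53.2 FPKM in EmptyBAL and at 559.6 and 585 FPKM in hiHepD8 (log2 difference 3.42 ± 0.37 SE, adjusted p = 0.00049), and SERPINC1, antithrombin, was at 62 and 161 FPKM in EmptyBAL and at 985 and 977 FPKM in hiHepD8 (log2 difference 3.28 ± 0.49 SE, adjusted p = 0.0018). The 2 called lower were PLAU, urokinase, and its receptor PLAUR, the latter at 35.1 and 17.7 FPKM in EmptyBAL and at 4.8 and 6.29 FPKM in hiHepD8 (log2 difference -2.0 ± 0.30 SE, adjusted p = 0.0019). Without EmptyBAL replicate 1 the lower calls numbered 1.

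Albumin was higher than in EmptyBAL and below normal liver. ALB was at 1498 and 4057 FPKM in EmptyBAL and at 13003 and 12980.4 FPKM in hiHepD8 (log2 difference 2.40 ± 0.50 SE, adjusted p = 0.0074), with 53929 ± 1472 FPKM in Control. Of the carriers, 7 of 14 tested genes were called higher and 0 lower (median log2 difference 1.57, or 2.31 and 0.92 against EmptyBAL replicates 1 and 2). HPX, hemopexin, which binds free heme, was at 324 and 62 FPKM in EmptyBAL and at 3114 and 2855 FPKM in hiHepD8 (log2 difference 4.38 ± 0.91 SE, adjusted p = 0.0074). GC, the vitamin D-binding protein, was at 44.4 and 54.1 FPKM in EmptyBAL and at 324 and 329 FPKM in hiHepD8 (log2 difference 2.71 ± 0.45 SE, adjusted p = 0.0028). TTR, transthyretin, was at 253 and 188 FPKM in EmptyBAL and at 385 and 395 FPKM in hiHepD8 and was not called, with 8607 ± 476 FPKM in Control. Of complement genes, 6 of 19 tested genes were called higher and 3 lower (median log2 difference 1.12, or 1.56 and 0.30 against EmptyBAL replicates 1 and 2). These complement counts were not far from the shares over all tested genes, 22.6% higher and 17.6% lower. C5, source of the membrane attack complex and of a chemoattractant peptide, was at 1.34 and 6.53 FPKM in EmptyBAL and at 22.6 and 21.6 FPKM in hiHepD8 (log2 difference 2.46 ± 0.55 SE, adjusted p = 0.0099). MASP2, the lectin pathway protease, and CFP, properdin of leukocytes, were called lower, with MASP2 at 31.3 and 18.1 FPKM in EmptyBAL and at 3.55 and 3.47 FPKM in hiHepD8 (log2 difference -2.46 ± 0.38 SE, adjusted p = 0.0021). Of acute phase proteins, 7 of 15 tested genes were called higher and 1 lower (median log2 difference 1.68, or 1.45 and 1.44 against EmptyBAL replicates 1 and 2). ITIH3, an inter-alpha-trypsin inhibitor chain, was at 125 and 69.5 FPKM in EmptyBAL and at 521 and 521 FPKM in hiHepD8 (log2 difference 2.47 ± 0.45 SE, adjusted p = 0.0043). LCN2, lipocalin of neutrophils and stressed hepatocytes, was called lower at 20.3 and 13.5 FPKM in EmptyBAL and at 2.08 and 1.61 FPKM in hiHepD8 (log2 difference -2.63 ± 0.24 SE, adjusted p = 0.00025). HAMP, hepcidin, the iron hormone, was at 4.39 and 328 FPKM in EmptyBAL and at 40.6 and 38.2 FPKM in hiHepD8, the widest EmptyBAL gap in the list, and was not called. Lower calls in the acute phase list numbered 2 without EmptyBAL replicate 1.

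Most called iron and heme genes were higher. In that list, 9 of 19 tested genes were called higher and 3 lower (median log2 difference 1.43, or 2.51 and 0.57 against EmptyBAL replicates 1 and 2). BMP6, which induces hepcidin, was at 7.78 and 4.16 FPKM in EmptyBAL and at 66.2 and 65.1 FPKM in hiHepD8 (log2 difference 3.31 ± 0.32 SE, adjusted p = 0.0003), and TFR2, an iron sensor of hepatocytes, was at 92.2 and 32.3 FPKM in EmptyBAL and at 382 and 380.1 FPKM in hiHepD8 (log2 difference 2.78 ± 0.54 SE, adjusted p = 0.0057). HMOX1, heme oxygenase, was called lower at 879.9 and 272 FPKM in EmptyBAL and at 57.1 and 62.1 FPKM in hiHepD8 (log2 difference -3.02 ± 0.48 SE, adjusted p = 0.0023), close to 58.6 ± 1.32 FPKM in Control. Calls numbered 15 and 3 without EmptyBAL replicate 2.

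Most transcription factors that specify hepatocytes were higher, and EmptyBAL replicate 1 was the lowest of the 4 libraries for 16 of 19. Of that list, 14 of 19 tested genes were called higher and 0 lower (median log2 difference 1.58, or 1.98 and 1.09 against EmptyBAL replicates 1 and 2). HNF4A, the central factor of hepatocyte identity, was at 3.15 and 46.5 FPKM in EmptyBAL and at 118 and 119 FPKM in hiHepD8 (log2 difference 3.09 ± 0.91 SE, adjusted p = 0.029). FOXA3, a pioneer factor, was at 1.39 and 14 FPKM in EmptyBAL and at 54.2 and 55.9 FPKM in hiHepD8 (log2 difference 3.23 ± 0.70 SE, adjusted p = 0.0091). NR1I3, the xenobiotic receptor CAR, was at 0.622 and 8.39 FPKM in EmptyBAL and at 26.7 and 29.1 FPKM in hiHepD8 (log2 difference 2.89 ± 0.67 SE, adjusted p = 0.012). CEBPA and CEBPB, which balance differentiation and proliferation, were not called, with CEBPB at 357 and 104 FPKM in EmptyBAL and at 148 and 149 FPKM in hiHepD8. Calls numbered 15 and 2 without EmptyBAL replicate 2.

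Hormone and clock genes were partly higher. Of the growth hormone and IGF genes, 6 of 11 tested genes were called higher and 0 lower (median log2 difference 0.99, or 0.99 and 0.99 against EmptyBAL replicates 1 and 2). IGFBP1, an IGF-binding protein that insulin represses, was at 15.8 and 267 FPKM in EmptyBAL and at 1049 and 1025 FPKM in hiHepD8 (log2 difference 3.95 ± 1.06 SE, adjusted p = 0.021), and IGFBP2 was at 258 and 364 FPKM in EmptyBAL and at 2791 and 2665 FPKM in hiHepD8 (log2 difference 3.15 ± 0.27 SE, adjusted p = 0.00021). IRS2, the insulin receptor substrate, was at 1.97 and 5.74 FPKM in EmptyBAL and at 26.4 and 27.3 FPKM in hiHepD8 (log2 difference 2.64 ± 0.34 SE, adjusted p = 0.00095). IGFALS, the partner of circulating IGF1, was at 1.89 and 3.44 FPKM in EmptyBAL and at 1.9 and 2.34 FPKM in hiHepD8 and was not called, with 193 ± 5.34 FPKM in Control. Of the clock genes, 8 of 16 tested genes were called higher and 0 lower (median log2 difference 0.66, or 0.57 and 1.05 against EmptyBAL replicates 1 and 2). NR1D2, a clock repressor, was at 1.33 and 1.73 FPKM in EmptyBAL and at 9.25 and 9.23 FPKM in hiHepD8 (log2 difference 2.02 ± 0.20 SE, adjusted p = 0.00037), PER1 was at 65.9 and 48.6 FPKM in EmptyBAL and at 199.7 and 202 FPKM in hiHepD8 (log2 difference 1.81 ± 0.24 SE, adjusted p = 0.0012), and ARNTL, the core activator BMAL1, was at 1.9 and 3.68 FPKM in EmptyBAL and at 11 and 10.1 FPKM in hiHepD8 (log2 difference 1.64 ± 0.22 SE, adjusted p = 0.0013). Sampling hours are not given in the sources used here. Calls numbered 5 and 2 without EmptyBAL replicate 2 for the IGF list, and 8 and 3 without EmptyBAL replicate 2 for the clock.

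Of zonation genes, which follow Wnt signals around the central vein, 3 of 14 tested genes were called higher and 3 lower (median log2 difference 0.26, or 0.97 and -0.47 against EmptyBAL replicates 1 and 2). The 3 called lower were the ligands WNT9B and WNT2 and the Wnt enhancer RSPO3, all made by endothelial or stromal cells. WNT9B was at 9.22 and 4.99 FPKM in EmptyBAL and at 0.635 and 0.532 FPKM in hiHepD8 (log2 difference -2.31 ± 0.24 SE, adjusted p = 0.00039). AXIN2, a direct Wnt target, was at 2.43 and 8.1 FPKM in EmptyBAL and at 2.66 and 2.39 FPKM in hiHepD8 and was not called. Calls numbered 3 and 7 without EmptyBAL replicate 1 and 8 and 3 without EmptyBAL replicate 2. Of growth factor and IL6-family genes, 5 of 23 tested genes were called higher and 3 lower (median log2 difference -0.14, or -0.30 and -0.09 against EmptyBAL replicates 1 and 2). For the zonation and growth factor lists alike, the shares called were close to or below those over all tested genes, 22.6% higher and 17.6% lower. ERBB3 and EGFR, receptors of the EGF family, were higher, with EGFR at 4.61 and 9.41 FPKM in EmptyBAL and at 50.5 and 51.7 FPKM in hiHepD8 (log2 difference 2.77 ± 0.30 SE, adjusted p = 0.00049). VEGFA, the angiogenic factor, was at 22.4 and 8.92 FPKM in EmptyBAL and at 78 and 77.4 FPKM in hiHepD8 (log2 difference 2.37 ± 0.36 SE, adjusted p = 0.0019). Calls numbered 6 and 7 without EmptyBAL replicate 2.

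All tested mitosis genes and most replication genes were called lower in hiHepD8. Of mitosis genes, 0 of 31 tested genes were called higher and 31 lower (median log2 difference -2.12, or -2.14 and -2.26 against EmptyBAL replicates 1 and 2). CDC20, which activates the anaphase-promoting complex, was at 28.9 and 29.4 FPKM in EmptyBAL and at 0.277 and 0.154 FPKM in hiHepD8 (log2 difference -4.63 ± 0.19 SE, adjusted p = 2.4e-05). UBE2C, the ubiquitin-conjugating enzyme of that complex, was at 79.3 and 66.4 FPKM in EmptyBAL and at 1.59 and 2.44 FPKM in hiHepD8 (log2 difference -4.62 ± 0.30 SE, adjusted p = 7.1e-05). CCNB2, cyclin B2, was at 13.6 and 10.8 FPKM in EmptyBAL and at 0.0881 and 0.118 FPKM in hiHepD8 (log2 difference -3.58 ± 0.15 SE, adjusted p = 2.4e-05). The EmptyBAL libraries were close to each other for these 3. For UBE2C hiHepD8 was near the normal liver, 1.7 ± 0.554 FPKM in Control. For CDC20 and CCNB2 it lay below the Control means of 1.07 and 0.766 FPKM. In hiHepD8, 27 of the 31 mitosis genes were below the Control mean. NDC80 and KIF4A, a kinetochore protein and a chromosome motor, were listed at 0 in both hiHepD8 libraries. Of DNA replication genes, 0 of 30 tested genes were called higher and 27 lower (median log2 difference -1.94, or -1.97 and -2.01 against EmptyBAL replicates 1 and 2). MCM4, a subunit of the replicative helicase, was at 32 and 31.9 FPKM in EmptyBAL and at 0.762 and 1.17 FPKM in hiHepD8 (log2 difference -4.07 ± 0.28 SE, adjusted p = 8e-05). CDT1, which loads that helicase, was at 22.5 and 17 FPKM in EmptyBAL and at 0 and 0.0994 FPKM in hiHepD8 (log2 difference -4.29 ± 0.20 SE, adjusted p = 3.4e-05). PCLAF, a PCNA-binding protein, was at 20.4 and 26.7 FPKM in EmptyBAL and at 0.177 and 0.0899 FPKM in hiHepD8 (log2 difference -4.43 ± 0.35 SE, adjusted p = 0.00015).

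Regulators of cell cycle entry went both ways. In that list, 5 of 20 tested genes were called higher and 6 lower (median log2 difference -0.16, or 0.14 and -0.08 against EmptyBAL replicates 1 and 2). Over all tested genes, 22.6% were called higher and 17.6% lower, so calls in both directions are not particular to this list. CCND1, cyclin D1, which starts G1, was at 14.1 and 30.0 FPKM in EmptyBAL and at 4.81 and 4.63 FPKM in hiHepD8 (log2 difference -1.92 ± 0.31 SE, adjusted p = 0.0025). CDKN1B, the inhibitor p27, was at 5.58 and 5.06 FPKM in EmptyBAL and at 36.2 and 41.7 FPKM in hiHepD8 (log2 difference 2.66 ± 0.16 SE, adjusted p = 4.4e-05), above 9.11 ± 0.338 FPKM in Control. SESN2 and SESN1, sestrins that restrain mTORC1 when amino acids are short, were also higher, with SESN2 at 2.8 and 10.5 FPKM in EmptyBAL and at 58.1 and 55.1 FPKM in hiHepD8 (log2 difference 3.12 ± 0.43 SE, adjusted p = 0.0013). Both hiHepD8 libraries exceeded every other library of the series for CDKN1B and SESN2. Calls numbered 8 and 7 without EmptyBAL replicate 2.

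Genes of ribosome assembly and of the proteasome were called lower or not called. Of ribosome biogenesis genes, 0 of 23 tested genes were called higher and 11 lower (median log2 difference -0.64, or -0.34 and -0.70 against EmptyBAL replicates 1 and 2). NPM3, a nucleolar histone chaperone, was at 35.4 and 61.4 FPKM in EmptyBAL and at 2.3 and 2.1 FPKM in hiHepD8 (log2 difference -3.90 ± 0.25 SE, adjusted p = 7e-05), and FBL, the rRNA methyltransferase fibrillarin, was at 107 and 102 FPKM in EmptyBAL and at 36.2 and 38.1 FPKM in hiHepD8, a smaller gap. Of cytosolic ribosomal proteins, 1 of 38 tested genes were called higher and 3 lower (median log2 difference -0.60, or -0.74 and -0.53 against EmptyBAL replicates 1 and 2), and the lower calls numbered 11 without EmptyBAL replicate 2. Of proteasome subunits, 0 of 25 tested genes were called higher and 11 lower (median log2 difference -0.64, or -0.26 and -0.84 against EmptyBAL replicates 1 and 2), and the lower calls numbered 20 without EmptyBAL replicate 1. PSMB3, a core subunit, was at 182 and 224 FPKM in EmptyBAL and at 54.5 and 48.7 FPKM in hiHepD8 (log2 difference -1.95 ± 0.24 SE, adjusted p = 0.00087). Of nuclear-encoded respiratory chain genes, 3 of 28 tested genes were called higher and 1 lower (median log2 difference 0.24, or 0.58 and -0.14 against EmptyBAL replicates 1 and 2). The 3 called higher, SDHA, SDHC and SDHD, all encode complex II. Calls in that list numbered 3 and 6 without EmptyBAL replicate 1 and 14 and 0 without EmptyBAL replicate 2.

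Stress genes were called in both directions, and the counts depended on the EmptyBAL library. Over all tested genes, 22.6% were called higher and 17.6% lower. Of chaperones and the unfolded protein response, 2 of 24 tested genes were called higher and 5 lower (median log2 difference -0.29, or -0.08 and -0.44 against EmptyBAL replicates 1 and 2). ATF3, a stress-induced factor, was at 10.3 and 7.09 FPKM in EmptyBAL and at 1.07 and 0.875 FPKM in hiHepD8 (log2 difference -2.28 ± 0.23 SE, adjusted p = 0.00036). ASNS, asparagine synthetase, induced when amino acids are short, was at 1.86 and 3.82 FPKM in EmptyBAL and at 0.297 and 0.399 FPKM in hiHepD8 (log2 difference -1.46 ± 0.24 SE, adjusted p = 0.0027). Of oxidative stress genes, 2 of 19 tested genes were called higher and 6 lower (median log2 difference -0.39, or 0.51 and -0.57 against EmptyBAL replicates 1 and 2). PRDX1, a peroxiredoxin, was at 314 and 293 FPKM in EmptyBAL and at 41.9 and 43.4 FPKM in hiHepD8 (log2 difference -2.80 ± 0.25 SE, adjusted p = 0.00023), near the normal liver at 42 ± 1.47 FPKM in Control. CAT, catalase, went the other way at 19.2 and 116 FPKM in EmptyBAL and at 285 and 280.4 FPKM in hiHepD8 (log2 difference 2.54 ± 0.73 SE, adjusted p = 0.026). Calls numbered 1 and 7 without EmptyBAL replicate 1 and 6 and 7 without EmptyBAL replicate 2 for the first list, and 1 and 9 without EmptyBAL replicate 1 and 6 and 6 without EmptyBAL replicate 2 for the other. Of immediate early genes, which respond within minutes to stimuli, 1 of 24 tested genes were called higher and 11 lower (median log2 difference -0.88, or -1.36 and -0.77 against EmptyBAL replicates 1 and 2). FOSL1 was at 15.9 and 10.3 FPKM in EmptyBAL and at 0.0641 and 0.0966 FPKM in hiHepD8 (log2 difference -3.67 ± 0.31 SE, adjusted p = 0.00019), and FOS was at 33 and 59.6 FPKM in EmptyBAL and at 5.1 and 5.06 FPKM in hiHepD8 (log2 difference -2.90 ± 0.38 SE, adjusted p = 0.0011), with 447 ± 10.3 FPKM in Control. Calls in that list numbered 3 and 15 without EmptyBAL replicate 2.

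Most leukocyte genes were lower in the day 8 livers, as were most S100 genes, not all of which are leukocyte genes. Of S100 genes, several of them abundant in myeloid cells, 0 of 10 tested genes were called higher and 7 lower (median log2 difference -2.61, or -3.25 and -1.97 against EmptyBAL replicates 1 and 2). S100A6 was at 219 and 446 FPKM in EmptyBAL and at 12.3 and 19.2 FPKM in hiHepD8 (log2 difference -4.26 ± 0.55 SE, adjusted p = 0.001), with replicate 2 the higher. S100A11 was at 681 and 328 FPKM in EmptyBAL and at 30.9 and 38.8 FPKM in hiHepD8 (log2 difference -3.73 ± 0.36 SE, adjusted p = 0.00029). Of neutrophil markers, 0 of 7 tested genes were called higher and 6 lower (median log2 difference -1.79, or -1.95 and -2.42 against EmptyBAL replicates 1 and 2). CSF3R, the receptor for granulocyte colony-stimulating factor, was at 8.38 and 9.9 FPKM in EmptyBAL and at 0.46 and 0.577 FPKM in hiHepD8 (log2 difference -2.74 ± 0.14 SE, adjusted p = 3.5e-05), and here the EmptyBAL libraries were alike. Of macrophage and Kupffer cell markers, 2 of 24 tested genes were called higher and 15 lower (median log2 difference -1.46, or -1.36 and -1.44 against EmptyBAL replicates 1 and 2), and calls numbered 1 and 17 without EmptyBAL replicate 1. SLC11A1, an iron and manganese exporter of phagosomes, was at 189 and 17.6 FPKM in EmptyBAL and at 1.23 and 1.95 FPKM in hiHepD8 (log2 difference -4.54 ± 0.87 SE, adjusted p = 0.0054), far higher in EmptyBAL replicate 1 than in replicate 2. CD68, a general macrophage marker, was at 63.9 and 77.5 FPKM in EmptyBAL and at 25.7 and 25.7 FPKM in hiHepD8, above 15.4 ± 0.918 FPKM in Control. CD14, the endotoxin co-receptor, and SLC40A1, the iron exporter ferroportin, were the 2 called higher, and both are also made by hepatocytes. CD14 was at 90.8 and 167 FPKM in EmptyBAL and at 483 and 490.0 FPKM in hiHepD8 (log2 difference 1.97 ± 0.53 SE, adjusted p = 0.022 and 0.085 without EmptyBAL replicate 1). CD209, a lectin of macrophages and dendritic cells, was at 37.4 and 53.9 FPKM in EmptyBAL and at 1.08 and 1.58 FPKM in hiHepD8 (log2 difference -4.31 ± 0.29 SE, adjusted p = 7.5e-05).

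Called lymphoid and antigen presentation genes were lower too. Of T and NK cell markers, 0 of 17 tested genes were called higher and 13 lower (median log2 difference -0.96, or -1.18 and -1.0 against EmptyBAL replicates 1 and 2). GZMA, granzyme A, was at 6.96 and 6.11 FPKM in EmptyBAL and at 0.458 and 0.539 FPKM in hiHepD8 (log2 difference -2.33 ± 0.21 SE, adjusted p = 0.00025), and CCL5 was at 74.7 and 67.2 FPKM in EmptyBAL and at 9.68 and 10.7 FPKM in hiHepD8 (log2 difference -2.68 ± 0.27 SE, adjusted p = 0.00036). Of B and plasma cell markers, 0 of 9 tested genes were called higher and 4 lower (median log2 difference -0.72, or -0.79 and -1.08 against EmptyBAL replicates 1 and 2). MZB1, a chaperone of antibody secretion, was at 15.4 and 36.7 FPKM in EmptyBAL and at 1.81 and 2.72 FPKM in hiHepD8 (log2 difference -2.94 ± 0.42 SE, adjusted p = 0.0015). JCHAIN, which joins IgA and IgM, was at 5.39 and 30.8 FPKM in EmptyBAL and at 14.1 and 13.9 FPKM in hiHepD8 and was not called. Of class II genes, 0 of 7 tested genes were called higher and 4 lower (median log2 difference -1.17, or -1.38 and -0.92 against EmptyBAL replicates 1 and 2). CD74, the invariant chain, was at 1661 and 1104 FPKM in EmptyBAL and at 526 and 531 FPKM in hiHepD8 (log2 difference -1.36 ± 0.37 SE, adjusted p = 0.022 and 0.064 without EmptyBAL replicate 1). Calls among B cell markers numbered 2 and 6 without EmptyBAL replicate 2.

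Most called chemokine and interferon genes were lower. Of chemokines and their receptors, 1 of 22 tested genes were called higher and 15 lower (median log2 difference -1.11, or -1.30 and -0.71 against EmptyBAL replicates 1 and 2). CCL19, which guides dendritic and T cells, was at 50.6 and 44 FPKM in EmptyBAL and at 5.87 and 4.24 FPKM in hiHepD8 (log2 difference -3.01 ± 0.44 SE, adjusted p = 0.0017). CCL4 was the 1 called higher, at 30.4 and 42.4 FPKM in EmptyBAL and at 293 and 302 FPKM in hiHepD8 (log2 difference 3.01 ± 0.51 SE, adjusted p = 0.0031), with 1506 ± 26.6 FPKM in Control. Higher and lower calls numbered 2 and 14 without EmptyBAL replicate 2. Of cytokine and NF-kB genes, 1 of 20 tested genes were called higher and 5 lower (median log2 difference -0.56, or -0.92 and -0.22 against EmptyBAL replicates 1 and 2). IL1R2, the decoy receptor of interleukin 1, was at 14.5 and 5.43 FPKM in EmptyBAL and at 0.173 and 0.104 FPKM in hiHepD8 (log2 difference -3.13 ± 0.41 SE, adjusted p = 0.0011). IL6 was at 5.99 and 1.16 FPKM in EmptyBAL and at 0.101 and 0.246 FPKM in hiHepD8 and was not called. Of interferon-stimulated genes, 1 of 29 tested genes were called higher and 9 lower (median log2 difference -0.37, or -0.78 and 0.13 against EmptyBAL replicates 1 and 2). BST2, tetherin, was at 76.5 and 28.2 FPKM in EmptyBAL and at 4.43 and 3.2 FPKM in hiHepD8 (log2 difference -3.32 ± 0.40 SE, adjusted p = 0.00071), and PSMB9, an immunoproteasome subunit, was at 38.7 and 14.9 FPKM in EmptyBAL and at 4.07 and 2.39 FPKM in hiHepD8 (log2 difference -2.60 ± 0.40 SE, adjusted p = 0.0021). STAT2, a mediator of interferon signals, was the 1 called higher (log2 difference 1.63 ± 0.27 SE, adjusted p = 0.0027). Calls numbered 0 and 5 without EmptyBAL replicate 1 and 1 and 10 without EmptyBAL replicate 2 for cytokines, and 3 and 8 without EmptyBAL replicate 1 for interferon genes.

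Few endothelial markers were called, and those of stellate cells and matrix went both ways. The shares called in the endothelial, stellate cell and matrix lists were close to or below those over all tested genes, 22.6% higher and 17.6% lower. Of endothelial markers, 1 of 18 tested genes were called higher and 1 lower (median log2 difference 0.06, or -0.57 and 0.39 against EmptyBAL replicates 1 and 2); calls numbered 7 and 1 without EmptyBAL replicate 1 and 1 and 7 without EmptyBAL replicate 2. ENG, endoglin, was at 121 and 43.2 FPKM in EmptyBAL and at 20.7 and 20.8 FPKM in hiHepD8 (log2 difference -1.75 ± 0.41 SE, adjusted p = 0.012). Of stellate cell and myofibroblast markers, 1 of 20 tested genes were called higher and 4 lower (median log2 difference 0.06, or -0.34 and -0.01 against EmptyBAL replicates 1 and 2); calls numbered 6 and 4 without EmptyBAL replicate 1 and 2 and 6 without EmptyBAL replicate 2. POSTN, periostin, a matrix protein of activated fibroblasts, was the 1 called higher, at 15.3 and 15.3 FPKM in EmptyBAL and at 90.1 and 88.7 FPKM in hiHepD8 (log2 difference 2.47 ± 0.22 SE, adjusted p = 0.00023). Of collagens and matrix genes, 6 of 27 tested genes were called higher and 3 lower (median log2 difference 0.20, or 0.00 and 0.17 against EmptyBAL replicates 1 and 2); calls numbered 7 and 5 without EmptyBAL replicate 1 and 7 and 9 without EmptyBAL replicate 2. LOX, which crosslinks collagen, was at 3.31 and 2.21 FPKM in EmptyBAL and at 10.9 and 10.1 FPKM in hiHepD8 (log2 difference 1.63 ± 0.19 SE, adjusted p = 0.00063), above 0.77 ± 0.0872 FPKM in Control, while COL5A1 was called lower at 63.7 and 19 FPKM in EmptyBAL and at 6.88 and 7.39 FPKM in hiHepD8 (log2 difference -2.14 ± 0.46 SE, adjusted p = 0.0084). Of the wider list of bile duct and progenitor markers, 2 of 14 tested genes were called higher and 4 lower (median log2 difference -0.30, or -0.01 and -0.42 against EmptyBAL replicates 1 and 2), with KRT7 at 80.0 and 105 FPKM in EmptyBAL and at 19.3 and 21 FPKM in hiHepD8 (log2 difference -2.13 ± 0.33 SE, adjusted p = 0.002); calls numbered 4 and 4 without EmptyBAL replicate 2. Of red cell and platelet markers, 2 of 6 tested genes were called higher and 1 lower (median log2 difference 0.48, or -0.44 and 0.90 against EmptyBAL replicates 1 and 2). HBB, beta globin, was at 151 and 4.49 FPKM in EmptyBAL and at 110.2 and 103 FPKM in hiHepD8 and was not called, and calls numbered 1 and 2 without EmptyBAL replicate 2.

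Most cytoskeleton genes were lower. Of tubulin and actin genes, 0 of 17 tested genes were called higher and 12 lower (median log2 difference -1.84, or -2.27 and -1.64 against EmptyBAL replicates 1 and 2). TUBB4B, a beta tubulin, was at 161 and 151 FPKM in EmptyBAL and at 21 and 21.8 FPKM in hiHepD8 (log2 difference -2.81 ± 0.21 SE, adjusted p = 0.00011), and TUBA1B, an alpha tubulin, was at 182 and 231 FPKM in EmptyBAL and at 32.8 and 30.7 FPKM in hiHepD8 (log2 difference -2.66 ± 0.19 SE, adjusted p = 9e-05). TMSB10, a thymosin that binds actin, was at 3968 and 1381 FPKM in EmptyBAL and at 382 and 376 FPKM in hiHepD8 (log2 difference -2.62 ± 0.48 SE, adjusted p = 0.0043), with EmptyBAL replicate 1 the highest. ACTB, beta actin, was at 1629 and 954 FPKM in EmptyBAL and at 305 and 304 FPKM in hiHepD8 (log2 difference -2.03 ± 0.31 SE, adjusted p = 0.0019), and hiHepD8 lay below 1136 ± 56.2 FPKM in Control too.

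**Figure D4:**
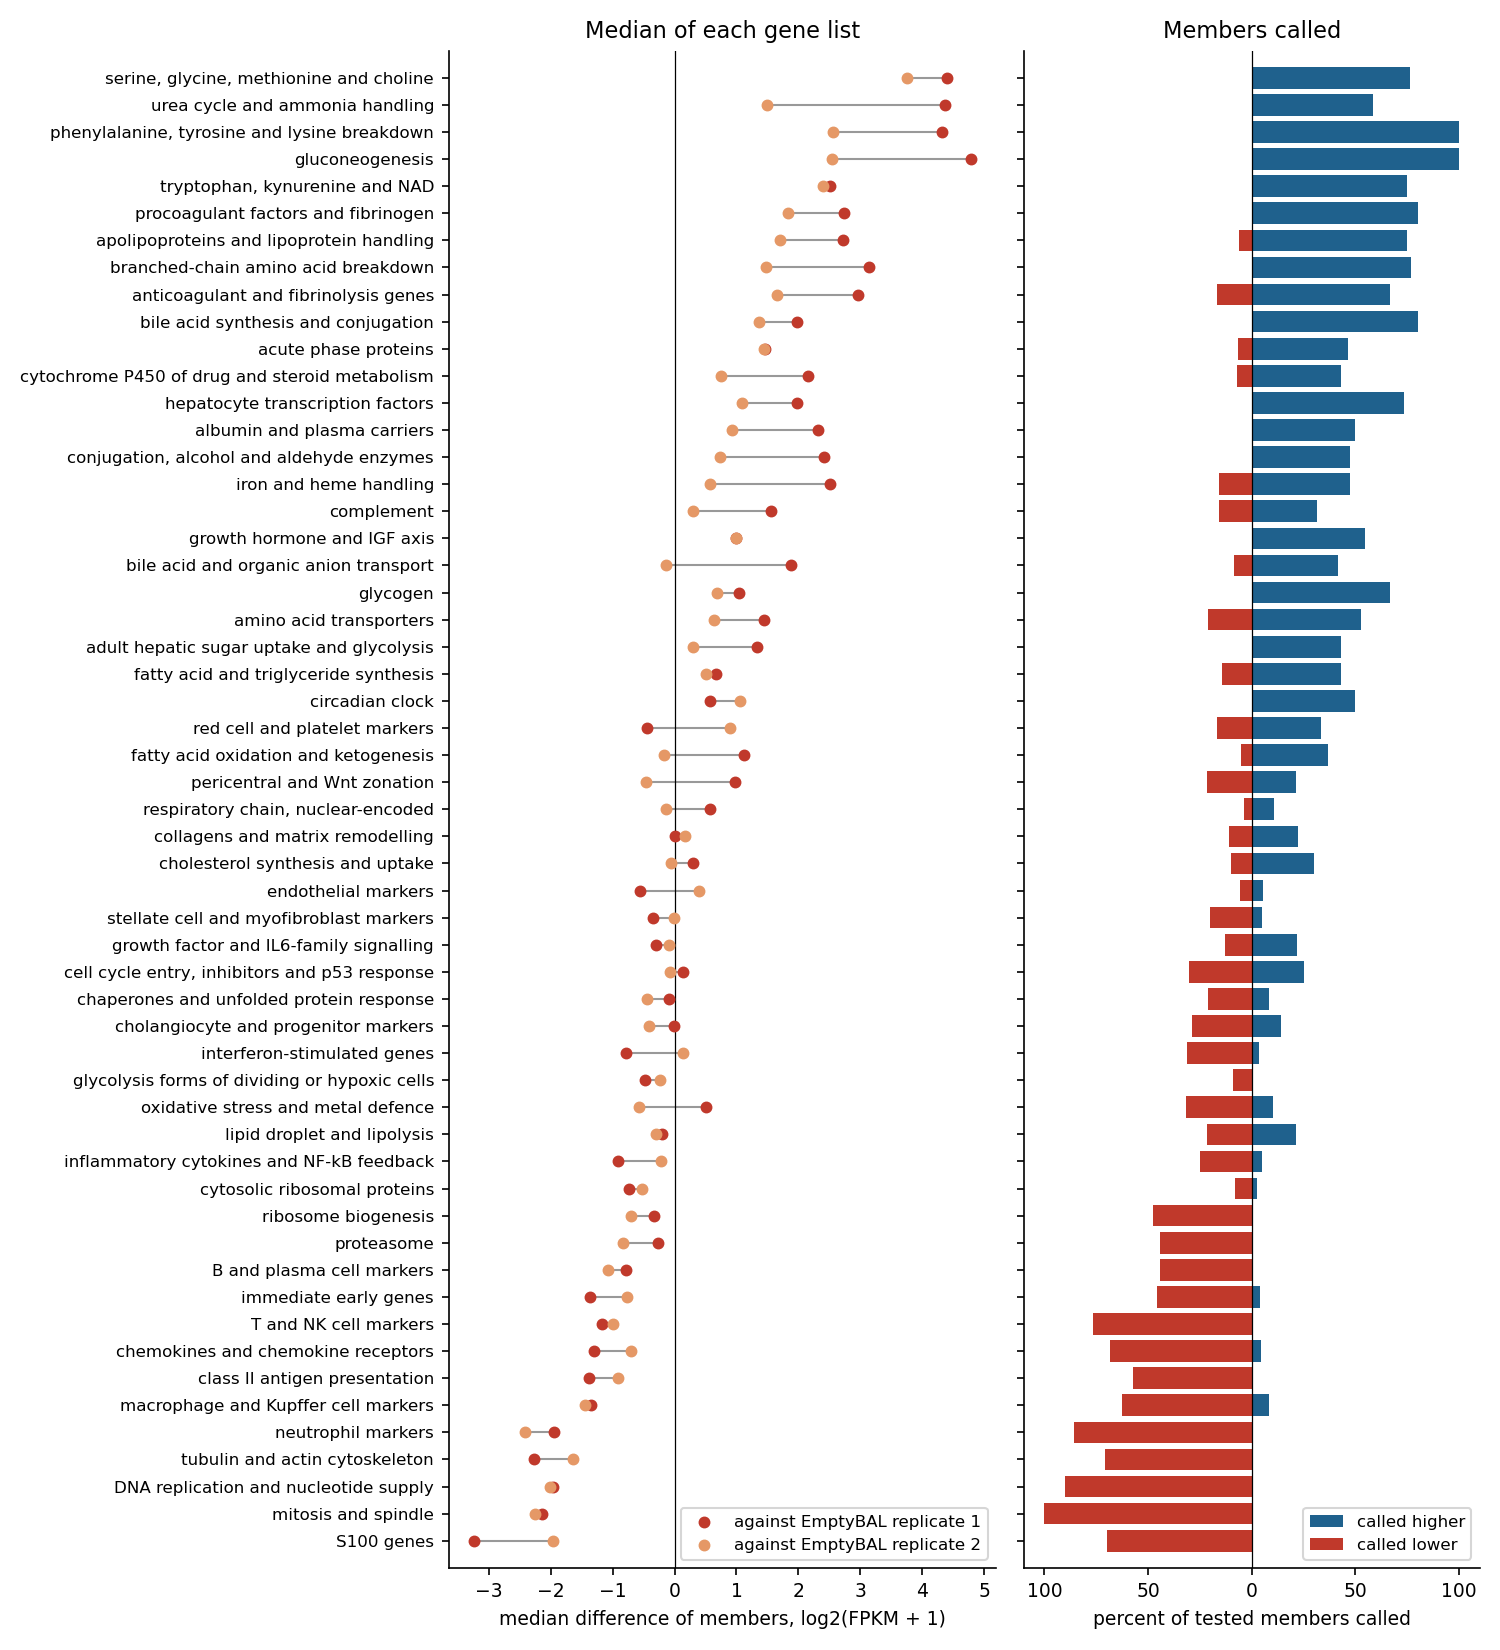
For 55 gene lists ordered by their median, the left panel gives the median log2 difference of hiHepD8 from EmptyBAL replicate 1 (dark red) and replicate 2 (orange), and the right panel the percent of tested members called higher (blue) or lower (red). Mitosis and replication medians were nearly equal from both EmptyBAL libraries (-2.14 and -2.26 for mitosis), while those of the urea cycle (4.37 and 1.49) and of bile acid transport (1.88 and -0.14) were far apart.

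The other groups place these levels in the series, as values with no test. TAT was at 116 and 59.9 FPKM in NoBAL and at 753 FPKM in the hiHepD4 library, so its highest level outside hiHepD8 was the other cell-filled device library. SDS was at 17.4 and 18.8 FPKM in NoBAL and at 16.2 FPKM in the hiHepD4 library, near Control, so that only hiHepD8 and, far lower, EmptyBAL replicate 2 stood above it. TK1 was at 141 and 65.4 FPKM in NoBAL and at 35.7 FPKM in the hiHepD4 library, which puts every library from failing liver before day 8 above 3.12 ± 0.727 FPKM in Control. HMOX1 was at 67.6 and 93.4 FPKM in NoBAL and at 736 FPKM in the hiHepD4 library. It was high with either kind of device on days 3 and 4, and near Control in NoBAL and hiHepD8. MARCO was at 10.1 and 11 FPKM in NoBAL and at 20.4 FPKM in the hiHepD4 library, so that both EmptyBAL libraries exceeded every other library of the series.

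Some differences took the day 8 livers past normal liver. There were 203 genes called higher than EmptyBAL whose hiHepD8 libraries both exceeded 2 times every Control library, and 144 genes called lower whose hiHepD8 libraries were both under 0.5 times every Control library. Only the most abundant gene of each symbol was counted. The mean had to reach 10 FPKM in hiHepD8 for the first set and in EmptyBAL for the second. Without these limits, 489 of the 2751 higher genes were at least 2-fold above the Control mean in hiHepD8. Of the 2144 lower genes, 286 were at least 2-fold below it. These positions were not tested. TAT, SDS and G6PC1 were in the first set. So were several genes chosen after their values were seen. PTPRN, a protein of secretory granules in neuroendocrine cells, was at 0.294 and 0.184 FPKM in EmptyBAL and at 29.3 and 31.7 FPKM in hiHepD8 (log2 difference 4.67 ± 0.16 SE, adjusted p = 2.4e-05, and 0.022 with Control and hiHepD8 counted once), with 0.526 ± 0.211 FPKM in Control. NRIP3 was at 0.166 and 1.05 FPKM in EmptyBAL and at 25.8 and 29.5 FPKM in hiHepD8, with 0.0667 ± 0.0369 FPKM in Control. KLF15, a factor induced by fasting and glucocorticoids, was at 3.19 and 22.4 FPKM in EmptyBAL and at 191 and 198 FPKM in hiHepD8 (log2 difference 4.30 ± 0.66 SE, adjusted p = 0.0021), with 49.1 ± 2.54 FPKM in Control. CAV1, of membrane caveolae, was at 1.53 and 4.79 FPKM in EmptyBAL and at 38.8 and 37.1 FPKM in hiHepD8 (log2 difference 3.35 ± 0.37 SE, adjusted p = 0.00052). In the second set were PLIN2, CCL2, FOS and SLC22A7, described above, and the replication and mitosis genes TK1, PCLAF, CDT1, CDC20 and CCNB2. PHLDA2, an imprinted growth-restraining gene also chosen after its values were seen, was in it too, at 142 and 77.5 FPKM in EmptyBAL and at 6.5 and 7.08 FPKM in hiHepD8 (log2 difference -3.77 ± 0.33 SE, adjusted p = 0.00021), with 90.3 ± 3.96 FPKM in Control.

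For 3468 of the 12180 genes the groups overlapped, and for another 3817 they did not overlap and the gene was not called. Among the latter were several abundant liver genes whose EmptyBAL libraries differed widely. BHMT, which remethylates homocysteine, was at 12.1 and 311 FPKM in EmptyBAL and at 415 and 413 FPKM in hiHepD8 (adjusted p = 0.10). RBP4, the retinol carrier of plasma, was at 169 and 2165 FPKM in EmptyBAL and at 2328 and 2337 FPKM in hiHepD8 (adjusted p = 0.15). CYP3A29, a drug-metabolising P450, was at 66.5 and 802 FPKM in EmptyBAL and at 1214 and 1233 FPKM in hiHepD8 (adjusted p = 0.090). In these 3, EmptyBAL replicate 2 was near hiHepD8 and replicate 1 was far below it. DHRS4, a carbonyl reductase chosen after its values were seen, was at 99.4 and 1859.8 FPKM in EmptyBAL and at 61.1 and 63.4 FPKM in hiHepD8, so that hiHepD8 lay below both. A gene that is not called is not shown to be equal between the groups.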

How the data were processed

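Per the labels' protocols, total RNA was extracted from pig liver with Trizol, and libraries made with an Illumina TruSeq RNA kit were sequenced as paired 150-base reads on an Illumina HiSeq. Per the submitters' processing notes, HISAT2, Cufflinks and HTSeq were used, and Sscrofa11.1 and mm10 are named as builds. The deposited table gives FPKM per gene for 10 libraries, which the authors computed; counts and depth are not analysed here. Of 31905 genes, the 12180 that reached 1 FPKM in 2 or more libraries were kept. After adding a pseudocount of 1 and taking log2, values were fitted in limma 3.58.1 (R 4.3.3) with a mean-variance trend and 1 mean for each of 5 groups (5 residual degrees of freedom). The contrast was hiHepD8 minus EmptyBAL, two-sided, with Benjamini-Hochberg adjustment over all 12180 genes and calls at adjusted p under 0.05. The fit was also run on simulated data in which all groups shared 1 spread for each gene. That run cannot show how the fit behaves with groups of unequal spread, as here. Figures were drawn with matplotlib 3.10.9, and tables made with pandas 2.3.3 and numpy 2.4.6 in Python 3.11.15. Gene symbols came from the table (16497 genes) or, for 851 more, from the reference names by identifier. Gene lists were written from general knowledge of liver, and members, lists and tests were chosen with earlier results of these data known.

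By rule, the text names the 15 genes highest and the 15 lowest by log2 difference among called genes with a symbol, non-overlapping groups and at least 10 FPKM on average in the higher group, up to 4 called members of each list with the largest absolute difference, or up to 2 of the most abundant where none was called, and the markers of each cell type; some of these genes are not reported here. Other genes, named to complete a pathway or to show where the EmptyBAL libraries differ, were chosen after their values were seen: OTC, ARG1, GLUL, GLUD1, AGXT, SLC3A2, SLC7A5, SLC7A1, SLC1A5, PPARGC1A, PKM, FADS1, FADS2, PPARA, APOA2, APOA4, CYP7A1, CYP8B1, SLC51A, CYP2A19, CYP1A1, ALDH1A1, F8, F3, PLAU, PLAUR, HAMP, CEBPA, CEBPB, IGFALS, ARNTL, AXIN2, WNT2, CFP, SLC40A1, CCND1, IL6, STAT2, LOX, ACTB, NDC80, KIF4A, PTPRN, NRIP3, KLF15, CAV1, PHLDA2, BHMT, RBP4, CYP3A29 and DHRS4. Alternatives changed the pseudocount (0.1), the filter (none, or at least 5 FPKM), the scaling (upper quartile, median of ratios), the trend, the libraries fitted, group weights, a block by replicate number, counting Control and hiHepD8 once each, and leaving out each replicate.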

Additional observations from a re-analysis of the deposited data

How the results depend on the processing

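The counts of genes called higher, lower and at least 2-fold stayed within 1.5 times 2751, 2144 and 3061 under another pseudocount, both filters, both scalings and no trend. Fitted on the 4 compared libraries alone they were 1407, 946 and 1981. With group weights 1522 genes were called higher and 1073 lower. With Control and hiHepD8 each counted as 1 library, the EmptyBAL and NoBAL libraries alone set the spread, and the counts were 27, 6 and 33. Leaving out 1 replicate gave 1433 to 3569 higher calls, 990 to 3229 lower calls and 2104 to 4235 calls of at least 2-fold. The lowest were without a hiHepD8 replicate and the highest without EmptyBAL replicate 2. Each of these fits leaves 1 library in a group, assumed to vary like the other groups. The EmptyBAL libraries differed more from each other than those of any other group. Calls against a single EmptyBAL library are therefore less certain than their p-values imply. The main fit has the same limit in part, because its 5 groups share 1 spread for each gene. Its SEs and p-values can therefore be too small for EmptyBAL. Estimated group weights were 0.127 for each EmptyBAL library and 4.71 for each hiHepD8 library. The cause of the shifts in these counts was not tested.

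The correlation of deviations between same-numbered EmptyBAL and hiHepD8 libraries was 0.033 over 1 pair of numbers. Because the hiHepD8 libraries nearly coincide, this value cannot tell whether the numbers pair the libraries. The main fit did not pair them. With a replicate block 2154 genes were called higher, 1638 lower and 2818 at least 2-fold. Of 250 named genes, 218 lost their call with groups counted once, 68 in the 4 compared libraries, 15 with the replicate block, 58 without either hiHepD8 replicate, 16 without EmptyBAL replicate 1 and 8 without replicate 2. JCHAIN went from a log2 difference of 0.08 (not called) to -1.08 without EmptyBAL replicate 1 and 1.23 without replicate 2. Its direction thus depended on which EmptyBAL library was kept. The same held for other named genes whose hiHepD8 values lay between their EmptyBAL values, among them HBB, PECAM1 and RGS5, none of them called.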

Other observations

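Several genes outside the gene lists passed the threshold even with Control and hiHepD8 each counted once, and were chosen for that. PLPP4, a phospholipid phosphatase, was at 0.517 and 0.405 FPKM in EmptyBAL and at 10.4 and 12.7 FPKM in hiHepD8 (log2 difference 3.10 ± 0.22 SE, adjusted p = 9.4e-05). KIF1A, a motor of axonal transport, was at 0.0875 and 0.181 FPKM in EmptyBAL and at 33.6 and 33.8 FPKM in hiHepD8 (log2 difference 4.94 ± 0.20 SE, adjusted p = 2.4e-05). CLDN11, a tight junction protein of myelin and testis, was at 0.215 and 0.076 FPKM in EmptyBAL and at 6.69 and 6.99 FPKM in hiHepD8 (log2 difference 2.78 ± 0.12 SE, adjusted p = 2.4e-05). PLB1, a phospholipase, was at 0.225 and 0.277 FPKM in EmptyBAL and at 12.3 and 12.1 FPKM in hiHepD8 (log2 difference 3.40 ± 0.14 SE, adjusted p = 2.4e-05). DNASE2B, an acid nuclease of the lens, was at 0.335 and 0.14 FPKM in EmptyBAL and at 6.53 and 4.8 FPKM in hiHepD8 (log2 difference 2.42 ± 0.23 SE, adjusted p = 0.00029).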
